A study of Mus musculus with 18 samples.

Results

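Gad1, Pax6 and 6 further genes with known roles in amacrine cells were followed in RNA of sorted mouse cones. The 8 genes (Gad1, Gad2, Slc32a1, Slc6a9, Pax6, Tfap2a, Tfap2b and C1ql2) were picked by symbol from the 54532 genes of the count tables. They were picked with an earlier result of these libraries in view, in which the summed RNA of amacrine genes was higher in BALB/c cones given Txnip than in BALB/c controls. That contrast is therefore described below without a test. The C57BL/6J contrast and the contrast between the control groups were not used to pick the genes and were tested. The second of these shares its 6 BALB/c controls with the contrast that was in view.

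The series holds 18 RNA-seq libraries, each made from cones sorted from 1 WT retina. Retinas of BALB/c mice, an albino WT strain, were taken at P21 (6 control, 6 Txnip), and those of C57BL/6J mice at P35 (3 control, 3 Txnip), where P stands for postnatal day. All eyes received AAV8 vectors as newborns (P0). Controls received AAV8-SynP136-H2BGFP, a cone-specific nuclear label that was used for the sort, and the Txnip eyes received this label together with AAV8-RedO-Txnip. According to the study's methods the RedO promoter is less specific than SynP136 and is weakly active in some rods. Strain and age cannot be told apart. The sources used here do not say which retinas came from the same mouse, so that p-values measure the spread between these libraries.

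Amacrine cells are inhibitory interneurons of the inner retina, and they are usually told apart by the transmitter that they release. Gad1 and Gad2 encode the 2 glutamate decarboxylases that make GABA, and Slc32a1 encodes the vesicular transporter that loads GABA and glycine into synaptic vesicles. Slc6a9 encodes the glycine transporter GlyT1, a usual marker of glycinergic amacrine cells. Pax6, Tfap2a and Tfap2b encode transcription factors that amacrine cells keep in the adult retina, and Pax6 is kept in ganglion and horizontal cells too. C1ql2 encodes a secreted protein of the C1q family. Mature cones are not a usual source of any of these transmitters.

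Gad1 lies at chr2:70553072-70602014 and Pax6 at chr2:105668900-105697364 (GRCm38, both on the plus strand). The bases just upstream of a RefSeq start of each are shown because the results below turn on these 2 genes, and because cones and amacrine cells differ in the factors that such windows can bind. They are RefSeq sequences of GRCm38.p6, plus strand, for chr2:70561879-70562041 and chr2:105668646-105668895. Capitals mark matches on either strand to TAATCC, the core bound by the photoreceptor factor CRX, and to GCCNNNGGC, the palindrome bound by AP-2 proteins such as Tfap2a and Tfap2b.
Gad1: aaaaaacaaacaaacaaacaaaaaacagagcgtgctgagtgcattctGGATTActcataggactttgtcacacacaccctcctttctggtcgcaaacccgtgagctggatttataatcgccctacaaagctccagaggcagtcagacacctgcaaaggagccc
Pax6: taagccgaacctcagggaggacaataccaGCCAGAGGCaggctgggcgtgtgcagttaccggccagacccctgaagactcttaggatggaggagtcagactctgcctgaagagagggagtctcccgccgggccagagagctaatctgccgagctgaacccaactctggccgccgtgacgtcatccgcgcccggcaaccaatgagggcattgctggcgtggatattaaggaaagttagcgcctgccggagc

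The Gad1 window was searched over 250 bases, of which the last 87 lie in annotated exons and are not shown. All 8 members had at least 1 promoter entry, 12 in all. Gad1 was the only member with a match to TAATCC, which 6.25% of all 32851 promoter windows of this length held. Pax6 and Gad2 (chr2:22622205-22693874) held GCCNNNGGC, as did 13.7% of all windows, and no match of one motif overlapped a match of the other. These matches describe letters and not binding.

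The libraries held between 647712 and 5172156 counted read pairs. The count of 3 that was taken as the floor corresponded to between 0.582 and 4.65 CPM (counts scaled by edgeR to TMM-normalized library sizes), depending on the library. Txnip itself had 0 to 3 counts in every control library and 663 to 8536 counts in every Txnip library, so each library matched its label. The summed level of 12 genes that define cones ran from 41124 to 95943 CPM, above that of every other cell type list in each library. A pair of C57BL/6J libraries, control 1 and Txnip 2, stood apart from the other 4: their summed bipolar genes were at 353 and 547 CPM, against 78.1 to 176 CPM in the other C57BL/6J libraries and 88.3 to 144 CPM in BALB/c, and their summed rod genes were the highest of the 18 libraries. In bulk libraries of this kind, fewer cells of a type and less RNA per cell cannot be told apart.

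In BALB/c control cones, Slc6a9 and Gad1 had the highest levels per kb of exon among the members. Per kb of exon, the level was 19.7 ± 3.63 CPM (SD, n = 6) for Slc6a9, 14.4 ± 3.53 for Gad1 and 10.3 ± 2.77 for C1ql2. It was 6.24 ± 1.30 for Tfap2b, 4.67 ± 0.746 for Pax6 and 1.80 ± 0.522 for Gad2. Tfap2a and Slc32a1 were near the floor, at 0.328 ± 0.238 and 0.284 ± 0.323. Neighbours in this order overlapped within 1 SD, except for C1ql2 against Tfap2b, whose intervals just missed each other, for Pax6 against Gad2, and for Gad2 against Tfap2a. Of the decarboxylases, Gad1 had the higher level per kb in each BALB/c control, and the ratio of Gad1 to Gad2 per kb ranged from 5.66 to 16.5 in the BALB/c controls.

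The counts of Slc6a9 need a caution, since its exons at chr4:117834506-117875198 share 1429 bases with Ccdc24, 511 bases with Gm17114 and 46 bases with B4galt2, all on the opposite strand, out of 5141 exonic bases. No strand option was set in the counting and a pair was counted for every gene that it touched, so pairs from these genes cannot be told apart there. Ccdc24 had 132 to 1482 counts per library, and the ratio of the Slc6a9 to the Ccdc24 count stayed between 0.246 and 0.521 in the 18 libraries. Gad1 and Pax6 shared no exonic bases with another gene. Slc32a1 (chr2:158610767-158615748) shared 697 of its 2797 exonic bases with Gm14205, and Tfap2a (chr13:40715302-40738376, minus strand) shared 265 with Gm47061, 380 with Gm26688 and 73 with Gm47067.

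**Figure D1:**
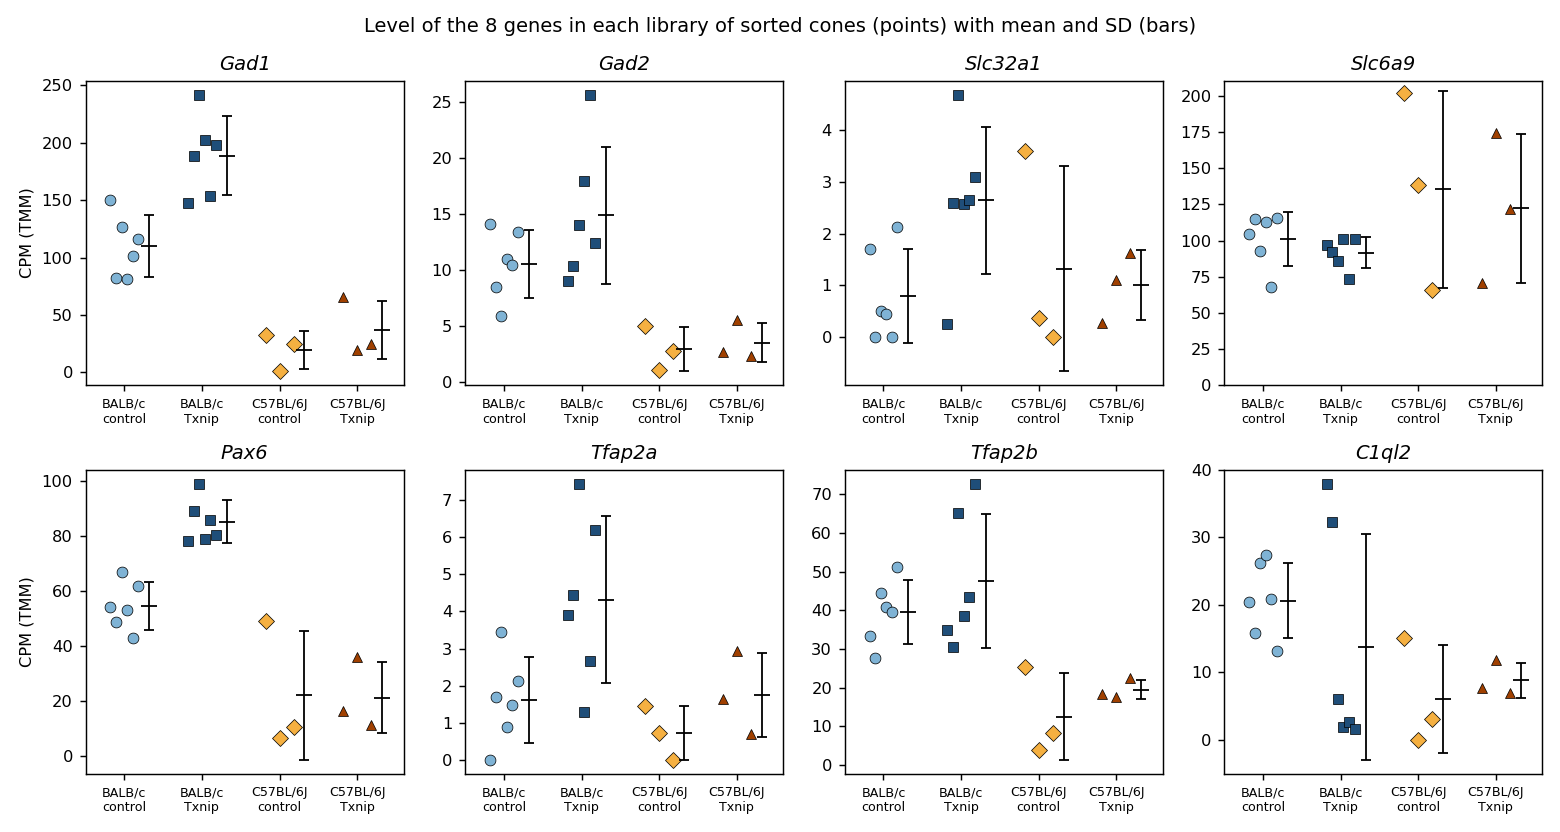
Level of each of the 8 genes in CPM (linear axis, scaled for each gene) in the 18 libraries, by group. Points are libraries and bars are the group mean with the SD. All 6 BALB/c Txnip libraries lie above all 6 BALB/c controls for Pax6, and the C57BL/6J libraries lie below all BALB/c libraries for Gad1 and Tfap2b.

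The first comparison concerned Txnip in BALB/c cones, the contrast in view when the genes were picked. Gad1 ranged from 81.0 to 150.6 CPM (median 109) in the 6 controls and from 148 to 242 CPM (median 194) in the 6 Txnip libraries. A single control, replicate 1, lay inside the Txnip range, and the other 5 lay below it. The means were 110 ± 26.9 and 189 ± 34.6 CPM (SD, n = 6 each), a log2 fold change of 0.78 ± 0.15 (SE).

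For Pax6 the controls ranged from 42.9 to 67.1 CPM (median 53.8) and the Txnip libraries from 78.4 to 99.2 CPM (median 83.2). Here the groups did not overlap, which held for 0.699% of the 12017 genes tested, 0.316% with Txnip above. Pax6 was the only such member, and since this contrast chose the genes nothing is read from that count. The log2 fold change of Pax6 was 0.65 ± 0.11 (SE). The ratio of Gad1 to Pax6 counts was 2.02 ± 0.464 in controls and 2.21 ± 0.324 with Txnip (SD, n = 6 each).

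The other 4 members that passed the filter on low counts had smaller fitted differences. Gad2 ranged from 5.92 to 14.2 CPM (median 10.7) in controls and from 9.01 to 25.7 CPM (median 13.2) with Txnip, with a log2 fold change of 0.41 ± 0.27 (SE). Tfap2b (chr1:19208914-19238576) ranged from 27.7 to 51.2 CPM in controls and from 30.5 to 72.8 CPM with Txnip, with a log2 fold change of 0.20 ± 0.20. Both pairs of groups overlapped widely. Single libraries moved both values, as Gad2 was at 0.23 without Txnip replicate 5, and Tfap2b ran from 0.04 without Txnip replicate 3 to 0.31 without Txnip replicate 2. The Slc6a9 medians were 109 CPM in controls and 94.3 CPM with Txnip, and its log2 fold change was -0.15 ± 0.13, and -0.24 without control replicate 5.

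C1ql2 (chr1:120340582-120343174) split the Txnip group. Its 6 controls lay between 13.2 and 27.3 CPM, Txnip replicates 1 and 2 lay above them at 38.0 and 32.3 CPM, and Txnip replicates 3 to 6 lay below them, between 1.55 and 5.96 CPM. Its log2 fold change of -0.32 ± 0.49 (SE) thus describes neither set, and it was -0.94 without Txnip replicate 1. Of the low set, replicate 3 had 28 C1ql2 counts beside 1136 of Gad1.

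Tfap2a and Slc32a1 did not pass the filter on low counts. Tfap2a had 0 to 11 counts in the controls and 2 to 35 with Txnip, and Slc32a1 had 0 to 11 and 1 to 22. Tfap2a was at 1.61 ± 1.17 CPM in controls and 4.32 ± 2.26 CPM with Txnip (SD, n = 6 each), and 3 of the 6 controls and 2 of the 6 Txnip libraries were at or under 3 counts. Slc32a1 was at 0.794 ± 0.904 and 2.64 ± 1.42 CPM, with 5 of the 6 controls and 3 of the 6 Txnip libraries at or under 3 counts. No fold is given for these 2 genes. Over the 6 members that passed, the median log2 fold change was 0.31, beside 0.00024 over all genes tested. Gad1 and Pax6 made up 48.3% ± 5.18 of the members' counts in controls and 60.9% ± 3.48 with Txnip (SD, n = 6 each).

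The other amacrine markers formed a list of 18 genes. In BALB/c, 9 of the 18 were tested, 7 of these had a positive log2 fold change, and their median was 0.31. Amacrine RNA was already known to be higher with Txnip in this contrast, so these values are a description and no separate result. Calb2, the calcium-binding protein calretinin, had a log2 fold change of 0.40 ± 0.18 (SE). In the lists for other cells, the median log2 fold change was 0.19 for 9 rod genes, 0.18 for 8 ganglion cell genes, 0.16 for 5 Müller glia genes, 0.15 for 3 horizontal cell genes, 0.07 for 8 bipolar genes and -0.07 for 12 cone genes. The summed cone genes were at 55647 ± 4377 CPM in controls and 50896 ± 3376 CPM with Txnip (SD, n = 6 each). The part of these cells in the Gad1 and Pax6 values was not tested.

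**Figure D2:**
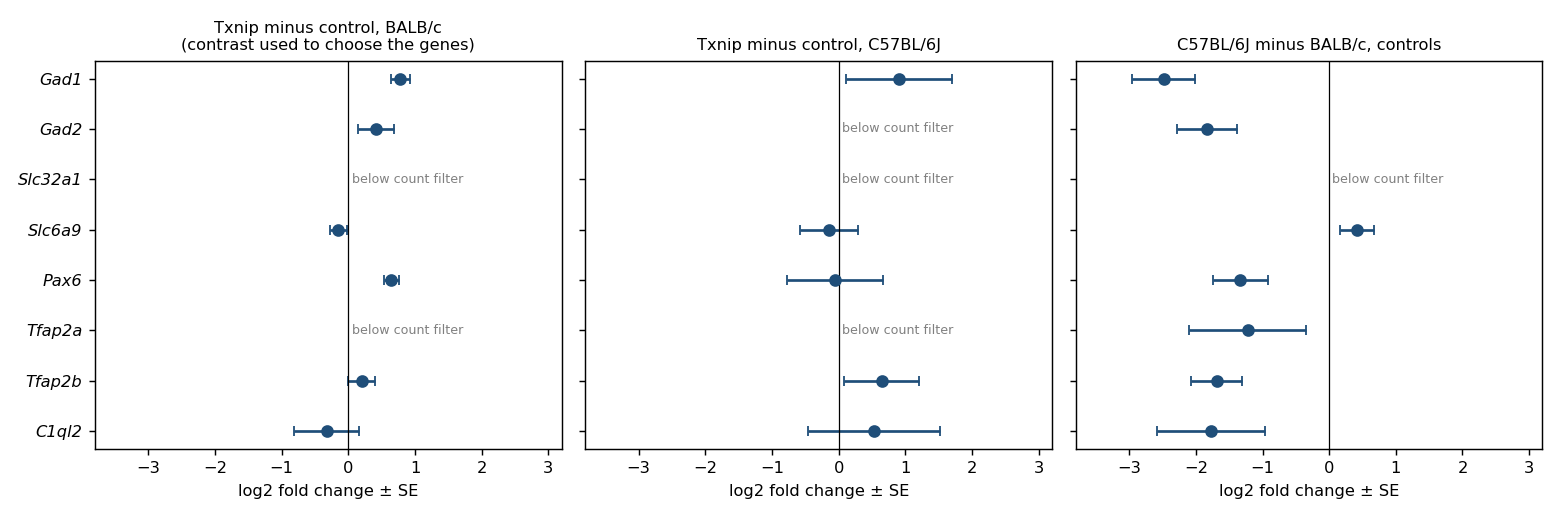
Log2 fold change (points) with its SE (bars) in 3 contrasts, from edgeR, for those of the 8 genes that passed the count filter of the contrast (6, 5 and 7 genes). In BALB/c, Gad1 and Pax6 lie at 0.78 and 0.65, in C57BL/6J the SE of the 5 genes is between 0.44 and 1.00, and between the controls Gad1, Gad2, Tfap2b and Pax6 lie between -2.48 and -1.33.

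The second comparison asked whether the same genes differed with Txnip in C57BL/6J cones. None of the 5 members tested passed (0 called by the quasi-likelihood test of edgeR, p adjusted by Benjamini-Hochberg), beside 0.0154% of the 12974 genes tested. DESeq2 called 0 members as well, and no member had an unadjusted edgeR p below the 0.05 threshold, beside 97 genes in all. No member had groups without overlap, beside 4.42% of all genes tested (2.22% with Txnip above, 2.2% with Txnip below).

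Gad1 was at 32.8, 1.07 and 24.7 CPM in control replicates 1, 2 and 3 and at 65.9, 19.8 and 25.1 CPM in Txnip replicates 1, 2 and 3. The low value of control 2 rests on 3 counts and the high value of Txnip 1 on 243, and the groups overlapped. The log2 fold change was 0.91 ± 0.79 (SE), with a 95% interval from -0.88 to 2.69 (edgeR adjusted p = 1.00). It was 0.22 without Txnip replicate 1, 0.35 without control 2, 1.49 without control 1 and 1.77 without control 1 and Txnip 2 together, with an edgeR adjusted p from 0.996 to 1.00.

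Pax6 was at 49.0, 6.44 and 10.5 CPM in the controls and at 16.3, 36.0 and 11.3 CPM in the Txnip libraries, in the same order. Control 1 and Txnip 2, the 2 libraries with high rod and bipolar sums, were also the 2 highest for Pax6. The log2 fold change was -0.06 ± 0.72 (SE, edgeR adjusted p = 1.00), with a 95% interval from -1.68 to 1.56. It turned to 0.67 ± 0.48 when these 2 libraries were left out, an alternative chosen after the data were seen, and to 1.31 without control 1 alone.

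Tfap2b was at 25.2, 3.94 and 8.32 CPM in controls and at 18.4, 17.6 and 22.4 CPM with Txnip, a log2 fold change of 0.64 ± 0.57 (SE). That value depended on single libraries: it was 0.22 without control 2 and 1.66 without control 1, where the unadjusted edgeR p was 0.0045 and the adjusted p 1.00, and it was 1.70 without control 1 and Txnip 2 together (unadjusted p = 0.0077, adjusted p = 1.00). C1ql2 was at 15.1, 0 and 3.05 CPM against 7.60, 11.7 and 6.92 CPM, a log2 fold change of 0.53 ± 1.00. Slc6a9 was at 202, 138 and 66.0 CPM against 70.8, 174 and 122 CPM, a log2 fold change of -0.15 ± 0.44. For Tfap2b, C1ql2 and Slc6a9 the groups overlapped, and the edgeR adjusted p was 1.00. C1ql2 moved to 2.43 without control 1, and the signs of C1ql2 and Slc6a9 each turned when single libraries were left out.

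Gad2, Slc32a1 and Tfap2a were not tested here, with 3 to 15, 0 to 10 and 0 to 8 counts in the C57BL/6J libraries. Over the 5 members tested the median log2 fold change was 0.53, beside 0.01 over all genes tested. Whether the effect of Txnip on any member differed between the strains was not tested, since the BALB/c values served to pick the genes.

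The third comparison set C57BL/6J against BALB/c control cones, and here 4 of the 7 members tested were lower in C57BL/6J and none was higher, beside 9.52% of the 14751 genes tested called lower and 8.03% called higher. The groups did not overlap for 3 of the 7, all below (18.6% of all genes tested, of which 9.66% lay below and 8.98% above). The members called were both glutamate decarboxylases, Pax6 and Tfap2b. The same C57BL/6J controls serve in the Txnip comparison above.

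Gad1 had a range of 81.0 to 150.6 CPM in the 6 BALB/c controls and values of 32.8, 1.07 and 24.7 CPM in the 3 C57BL/6J controls, with no overlap. Its mean was 5.63-fold lower in C57BL/6J, with a log2 fold change of -2.48 ± 0.47 (SE, edgeR adjusted p = 0.00074). Gad2 ranged from 5.92 to 14.2 CPM in BALB/c and was at 5.04, 1.07 and 2.77 CPM in C57BL/6J, again without overlap (log2 fold change -1.83 ± 0.45, edgeR adjusted p = 0.0065). Both decarboxylases were lower, and both kept their call when any 1 library was left out. Gad2 did not pass the filter on low counts within C57BL/6J, with 3 to 14 counts in the controls. It was tested here through its counts in BALB/c, the group where it is high, so its call is not read as separate support.

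Tfap2b was at 27.7 to 51.2 CPM in BALB/c and at 25.2, 3.94 and 8.32 CPM in C57BL/6J (log2 fold change -1.69 ± 0.38, edgeR adjusted p = 0.0034). Pax6 was at 42.9 to 67.1 CPM in BALB/c and at 49.0, 6.44 and 10.5 CPM in C57BL/6J, so that control 1 lay inside the BALB/c range. Its log2 fold change was -1.33 ± 0.41 (SE, edgeR adjusted p = 0.027). Without C57BL/6J control 1, which has high rod and bipolar sums, Pax6 moved to -2.67 and Tfap2b to -2.68. Without control 2 or control 3 the Pax6 call was lost (log2 fold change -0.92 and -0.98, edgeR adjusted p = 0.11 and 0.17).

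Slc6a9 went the other way, at 67.6 to 116 CPM in BALB/c and 202, 138 and 66.0 CPM in C57BL/6J. The groups overlapped, and it was not called (log2 fold change 0.42 ± 0.26, 95% interval -0.12 to 0.95, edgeR adjusted p = 0.29). Leaving out control 1 brought it to -0.01, and leaving out control 3 brought it to 0.75 with an edgeR adjusted p of 0.046. Ccdc24, whose exons overlap it, was higher in C57BL/6J, with a log2 fold change of 0.50 ± 0.16 (edgeR adjusted p = 0.038).

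C1ql2 was at 13.2 to 27.3 CPM in BALB/c and at 15.1, 0 and 3.05 CPM in C57BL/6J, where control 1 lay inside the BALB/c range. Its log2 fold change of -1.78 ± 0.81 did not pass (edgeR adjusted p = 0.14), while without control 1 it was -3.60 with an edgeR adjusted p of 0.017. Tfap2a had 0 to 4 counts in the C57BL/6J controls and 0 to 11 in BALB/c and was not called (edgeR adjusted p = 0.37), with no fold given at these counts. Slc32a1, with 0 to 11 counts in both control groups, was not tested. Over the 7 members tested the median log2 fold change was -1.69, beside -0.0012 over all genes.

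The lists for other cells differed between the controls in both directions. Of the 18 further amacrine genes, 13 were tested and 5 were lower in C57BL/6J: Calb2, the RNA-binding protein gene Elavl4, the neuropeptide precursor Penk, and Chat and Slc18a3, which make and package acetylcholine in starburst amacrine cells. None was higher. Calb2 was at 11.2, 0.716 and 1.11 CPM in the C57BL/6J controls and at 97.9 to 265 CPM in BALB/c, and Elavl4 was at 2.88, 1.07 and 0 CPM against 11.8 to 15.3 CPM. Chat and Penk had 0 to 2 counts and Slc18a3 had 0 to 1 in each C57BL/6J control, against 1 to 59, 12 to 61 and 8 to 98 in BALB/c, so no fold is given for these 3 genes. The homeobox gene Meis2 was not called, at 0.04 ± 0.15, with 61.9 to 79.7 CPM in BALB/c and 52.2 to 80.9 CPM in C57BL/6J.

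Among 9 ganglion cell genes, 8 were lower and none was higher, among them Sncg (log2 fold change -4.65 ± 0.45), the neurofilament genes Nefm (-4.31 ± 0.44) and Nefl (-4.19 ± 0.45), Slc17a6, Pou4f1, Pou4f2, Rbpms and Thy1. Nefh was not called, at 0.23 ± 0.25. Pou4f2 had 0 counts in each C57BL/6J control and 4 to 22 in BALB/c. Their summed level was 948 ± 319 CPM in BALB/c (SD, n = 6) and 81.0 ± 48.7 CPM in C57BL/6J (SD, n = 3). Of the 12 cone genes, 4 were higher in C57BL/6J and none was lower: the phosphodiesterase subunit Pde6c (2.65 ± 0.14), the M opsin Opn1mw (1.22 ± 0.14), cone arrestin Arr3 (0.98 ± 0.17) and Gngt2 (0.57 ± 0.16). Of the 9 rod genes, 4 were higher and none was lower. Control 1 stood apart for them. Cnga1 was at 178 CPM in control 1 and at no more than 18.6 CPM in controls 2 and 3, against 11.3 to 20.3 CPM in BALB/c, and Pde6b was at 1248, 97.7 and 144 CPM against 109 to 163 CPM. Of the 7 Müller glia genes tested, Rlbp1 and Glul were higher and Clu was lower. No bipolar or horizontal cell gene passed.

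These counts were repeated without C57BL/6J control 1 and Txnip 2, an alternative chosen after the data were seen. Of the 9 rod genes, 0 were then higher and 2, Nr2e3 and Pde6a, were lower. Of the 6 Müller glia genes tested, 0 were higher and Clu was lower. Lower were 9 of the 15 amacrine genes tested, 8 of the 9 ganglion cell genes and 1 horizontal cell gene, Calb1, and 7 of the 12 cone genes were higher. The filter on low counts passed other genes in this fit, so the numbers tested differ from those above. Among the C57BL/6J libraries left, only 3 of the amacrine genes passed it. Of the members, 5 of 7 were lower, with C1ql2 added, beside 2742 of the 15614 genes tested in this fit called in either direction. Whether the lower Gad1, Gad2, Pax6 and Tfap2b levels follow from fewer amacrine cells in the sort was not tested.

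The GABA and glycine genes other than the members, 23 in number, gave a mixed picture. Of the 21 tested between the controls, 5 were lower in C57BL/6J and 1 was higher. Among the lower genes were Abat, the enzyme that breaks down GABA (log2 fold change -1.06 ± 0.22), the GABA-A receptor subunits Gabra2 and Gabrb2, and the glycine receptor subunit Glrb. Glrb was at 17.3, 1.79 and 2.50 CPM in the C57BL/6J controls and 16.9 to 40.5 CPM in BALB/c, and Gabra2 at 7.56, 2.15 and 0.277 CPM against 32.8 to 54.9 CPM. Gabrb2 had 0 to 2 counts in the C57BL/6J controls and 2 to 35 in BALB/c, so no fold is given for it. Without C57BL/6J control 1 and Txnip 2, 13 of the 21 were lower and 1 was higher. With Txnip, none of the 18 genes tested in BALB/c and none of the 17 tested in C57BL/6J passed in edgeR.

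**Figure D3:**
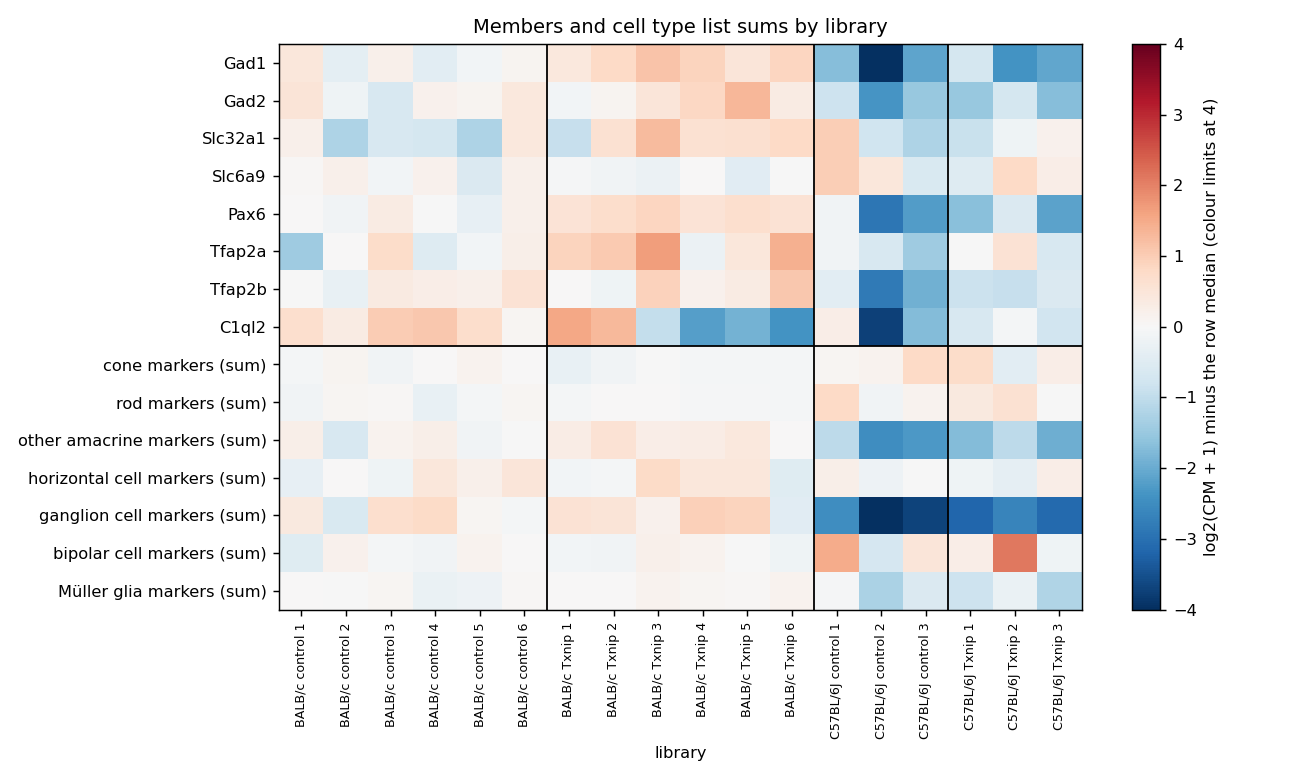
Level of the 8 genes and of the summed cell type lists (rows) in the 18 libraries (columns), as log2(CPM + 1) minus the row median. The C57BL/6J libraries are low for Gad1, other amacrine and ganglion cell genes, with C57BL/6J control 2 the lowest for Gad1, at 1.07 CPM, and C57BL/6J control 1 and Txnip 2 the highest for bipolar genes, at 353 and 547 CPM.

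C57BL/6J control 2 showed how low the members could be in a library of cones. It had 3 counts of Gad1, 3 of Gad2, 1 of Slc32a1, 18 of Pax6, 11 of Tfap2b and 0 of C1ql2. Its summed cone genes were at 60794 CPM, within the range of 58534 to 95943 CPM of the C57BL/6J controls. Slc6a9 did not share the low values, with 386 counts. In this library Slc6a9 made up 91.0% of the counts of the 8 genes, against 23.7% to 38.3% in the BALB/c controls.

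Gad1 and Pax6 were then compared with each other and with lists for cone, rod, other amacrine, bipolar and Müller cells across libraries of 1 strain, as log2 CPM centred on the group mean. There were 22 such relations over both strains, and none passed after Benjamini-Hochberg adjustment. The permutation test shuffled libraries within treatment groups and was two-sided.

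In BALB/c, with 12 libraries, Gad1 and Pax6 had a Pearson r of 0.50 (permutation p = 0.15, adjusted p = 0.47) and a Spearman rho of 0.55 (permutation p = 0.10). Without the 2 libraries farthest from the Pax6 median, r was 0.44. With the summed cone genes, r was -0.12 for Gad1 (permutation p = 0.74) and -0.39 for Pax6 (permutation p = 0.25), and these became -0.47 and -0.49 without the 2 farthest libraries. With the other amacrine genes it was 0.28 for Gad1 and 0.42 for Pax6 (permutation p = 0.46 and 0.27), and without the 2 farthest libraries -0.19 and 0.0066. With the Müller list, in which Clu alone held 83.1% of the level, r was 0.61 for Gad1 and 0.59 for Pax6 (permutation p = 0.073 and 0.11), and 0.57 and 0.54 without the 2 farthest.

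With the rod list in BALB/c, r was 0.21 for Gad1 and 0.31 for Pax6 (permutation p = 0.60 and 0.47), and 0.03 and 0.68 without the 2 farthest. With the bipolar list it was -0.27 and -0.14 (permutation p = 0.47 and 0.73), and -0.05 and -0.53 without the 2 farthest. The BALB/c libraries thus gave neither gene a relation past the threshold with cone or with amacrine genes.

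In C57BL/6J, control 1 and Txnip 2 formed a cluster of their own, and a relation over all 6 libraries would join this pair to the other 4. No r is given there for that reason, and the other 4 libraries are fewer than the 6 set as the least for an r. With 36 arrangements of the 6 libraries the exact permutation test cannot give a p below 0.028. The relations of Pax6 with the rod, other amacrine and bipolar sums reached that p, all 3 positive (adjusted p = 0.20). The relation of Pax6 with the cone sum, which was negative, had an exact permutation p of 0.36 (adjusted p = 0.61). The pair holds 1 library of each treatment group, and the shuffle stays within groups. These p-values therefore cannot tell a relation across the libraries from the gap between the pair and the other 4, and nothing is concluded from them.

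The pair that stood apart had the highest Pax6, at 49.0 and 36.0 CPM, against 6.44 to 16.3 CPM in the other 4. It also had the highest rod sums, 20017 and 17586 CPM, against 10424 to 15258 CPM, and the highest sums of other amacrine genes, 242 and 246 CPM, against 89.5 to 151 CPM. Its bipolar sums were 353 and 547 CPM, against 78.1 to 176 CPM. The cone sums of the pair were the lowest of the 6, at 58534 and 41124 CPM, against 60794 to 95943 CPM. For Gad1 the same pair was not apart, at 32.8 and 19.8 CPM, inside the range of 1.07 to 65.9 CPM of the other 4.

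**Figure D4:**
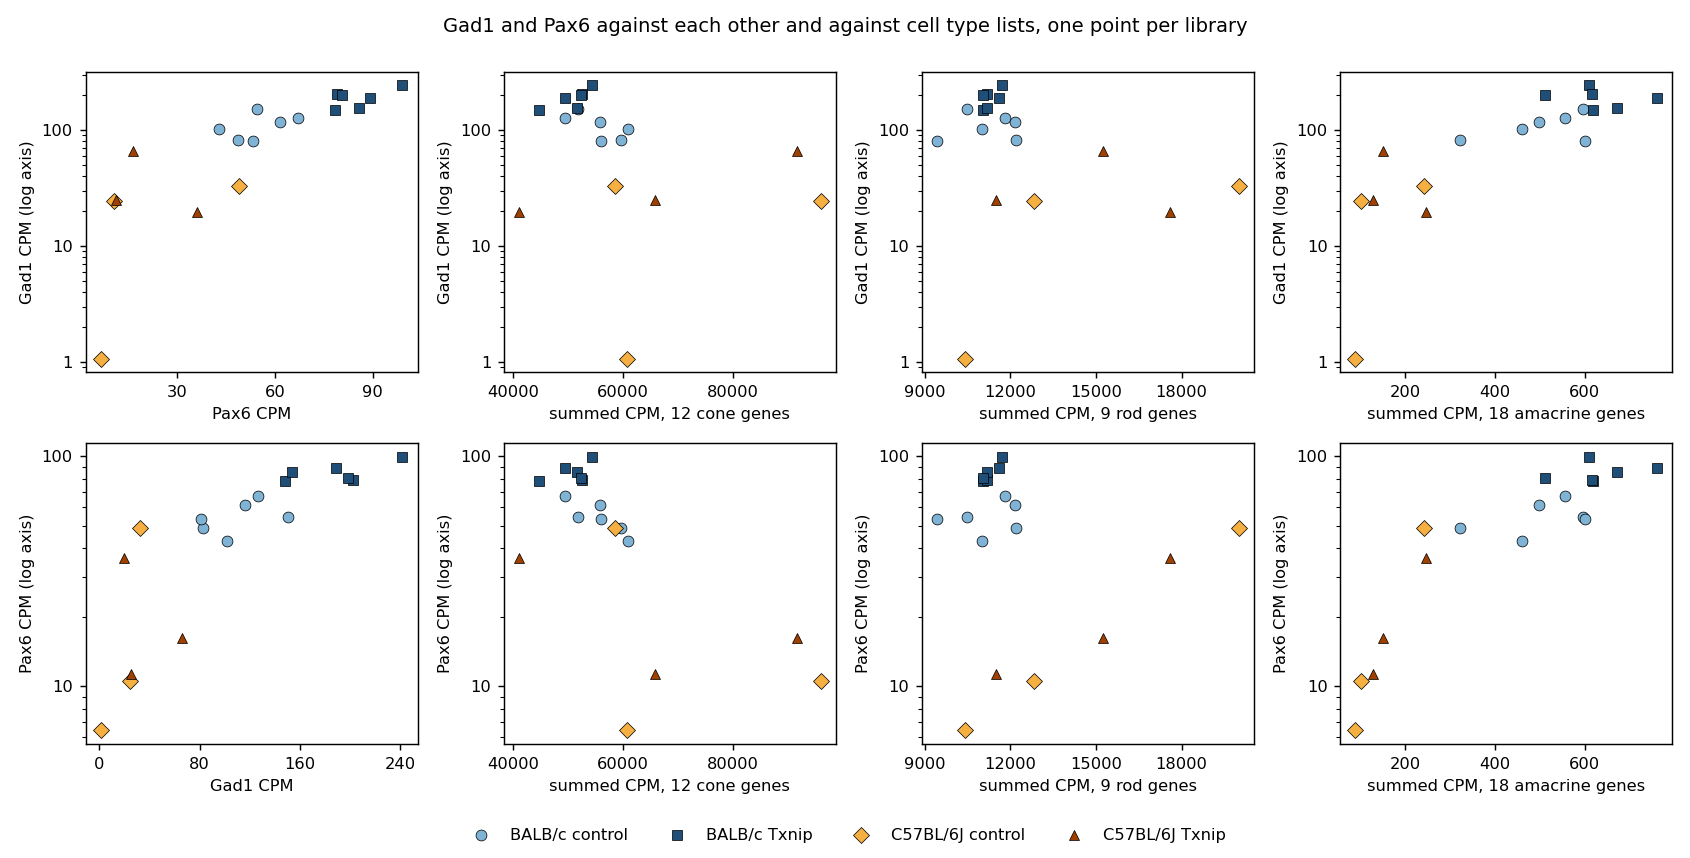
CPM of Gad1 (top, log axis) and Pax6 (bottom, log axis) against each other and against the summed CPM of cone, rod and other amacrine genes (linear axes), with 1 point for each of the 18 libraries. In C57BL/6J, Pax6 is highest (49.0 and 36.0 CPM) where the rod and amacrine sums are highest, while Gad1 is highest (65.9 CPM) in Txnip 1.

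The C57BL/6J libraries with the most Gad1 and with the most Pax6 were not the same. Txnip 1 had the highest Gad1, 65.9 CPM, and it was the only C57BL/6J library with Chat above 1 CPM, at 12.2 CPM, and with Slc18a3 above 1 CPM, at 6.51 CPM. It also had the highest Calb2 of the 6, 23.9 CPM. Control 1 and Txnip 2, with the highest Pax6, had no Chat counts. The genes in this paragraph other than Gad1 and Pax6 were singled out after their values were seen. The ratio of Gad1 to Pax6 counts ran from 0.167 to 4.05 in the 6 C57BL/6J libraries, whereas it ran from 1.52 to 2.77 in the 12 BALB/c libraries. The lowest ratio was that of control 2, on 3 Gad1 counts, and the highest that of Txnip 1. Control 1 and Txnip 2 were at 0.669 and 0.551.

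Pairs of members were compared in the same way, a set of 28 relations added after the data were seen, and none passed after adjustment. In BALB/c, Gad1 with Gad2 gave r = 0.08 (permutation p = 0.79), and 0.74 without the 2 farthest libraries. Gad1 with Tfap2b gave r = 0.38 (permutation p = 0.21), and 0.14 without the 2 farthest. The C57BL/6J pairs are not given singly, for the reason above.

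The genes most like Gad1 and Pax6 were read from all 18 libraries, again as log2 CPM centred on group means and with control 1 and Txnip 2 of C57BL/6J included, among 10889 genes with a mean count of at least 20. These r values are descriptions, and the libraries share depth and cell content. For Gad1 they were Selenof (r = 0.89), the mitochondrial gene mt-Nd4 (0.88), Twf1 (0.87), Golga7b (0.87) and Ankrd40 (0.87). In the 12 BALB/c libraries alone, the same 5 genes had r between -0.08 and 0.57, and in the C57BL/6J libraries alone between 0.91 and 0.98. Gad1 was at the floor of 3 counts in C57BL/6J control 2, its lowest library. How far that library sets these r values was not tested. Tfap2b (r = 0.66) was the member nearest to Gad1, at rank 304, and Pax6 (0.53) came at rank 1015.

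For Pax6 the nearest genes were the collagen gene Col6a1 (r = 0.95), the rod transcription factor gene Nr2e3 (0.95), Caly (0.95), Samd11 (0.95) and Rnf207 (0.94). In the 12 BALB/c libraries alone, the same 5 genes had r between 0.30 (Nr2e3) and 0.64 (Samd11).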

How the data were processed

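RNA of sorted cones was measured in 18 libraries, 1 for each retina, by a modified Smart-Seq2 protocol. Per the file headers, the authors made the deposited counts with featureCounts 1.6.2 from Ensembl 94 exons (GRCm38), counting read pairs per gene without a strand option and counting a pair for every gene that it overlapped. The submitters' processing notes name STAR, featureCounts, DESeq2 and GRCm38.p6. The authors' tables of their own DESeq2 results (fold changes and p-values) were not used.

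Totals ran from 647712 to 5172156 counts, and a floor of 3 counts was used, which covers counting error only. The counts of all genes were fitted with edgeR 4.0.16 (quasi-likelihood, TMM, default expression filter, R 4.3.3) for each comparison, and p-values were adjusted by Benjamini-Hochberg over all genes tested at a threshold of 0.05. Samples were grouped by the strain and treatment in the labels. For correlations, log2 CPM used a prior count of 2, was centred on the group mean and was tested by permutation within groups (exact, or 100000 draws). The main edgeR fit of each comparison was tested on simulated data, while the alternative fits were not. DESeq2 1.42.0, other normalizations and filters, a rod covariate, a replicate block and leaving out single libraries were alternatives.

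The genes named are the 8 members, genes whose exons overlap them, the genes of cell type and pathway lists that were called, and the 5 genes most like Gad1 and Pax6. Meis2 between the controls was named after its values were seen. Some genes of the lists are counted but not reported here by name. The members and the lists were chosen with earlier results of these data known.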

Additional observations from a re-analysis of the deposited data

How the results depend on the processing

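Leaving out C57BL/6J control 1 and Txnip 2, the 2 libraries with the highest rod and bipolar sums, and taking the rod level without Sag and Gngt1 as a covariate, were chosen after the data were seen. The Txnip effect on Pax6 in C57BL/6J, -0.06 on the log2 scale, turned to 0.43 with the rod level as a covariate, 0.27 with that level taken without Sag and Gngt1, and 0.67 without the 2 libraries. Leaving out single libraries, it ran from -0.71 to 1.31 and was positive without control 1, Txnip 1 or Txnip 3 (1.31, 0.11 and 0.22). The same effect ran from -0.52 to 0.27 for Slc6a9 (positive without control 1 or Txnip 1, at 0.27 and 0.14) and from -0.058 to 2.43 for C1ql2 (negative without control 2). No member was called in C57BL/6J under any alternative. Between the controls, Slc6a9 was at -0.01 (-0.0093) without the 2 libraries, and it ran from -0.01 (-0.0084) to 0.75 over single libraries. The number of members called there was 4, and 3 to 5 over single libraries. It was 2 where each gene needed at least 10 counts in every library, which left 3 members to test, and 3 with DESeq2, where the adjusted p of Pax6 was not given. Without the 2 libraries C1ql2 was called at -3.60 (edgeR adjusted p = 0.013), and with the rod level as a covariate at -3.07 (edgeR adjusted p = 0.021). The median over libraries of the members' summed CPM was 351, and 421 without mitochondrial and ribosomal RNA genes, which makes the total smaller by construction. In BALB/c, the median log2 fold change of the members ran from 0.22 to 0.41 over single libraries, and with the rod level without Sag and Gngt1 C1ql2 moved from -0.32 to -1.34, Gad2 from 0.41 to 0.67 and Slc6a9 from -0.15 to -0.27. Genes called over all genes in BALB/c were 2, but 76 with DESeq2 and 1400 with all genes of at least 1 count, and 0 with at least 10 counts in every library. They were 133 with the rod level without Sag and Gngt1 as a covariate, 258 without Txnip replicate 1 and 23 without control replicate 1. Between the controls they were 2588, and 1507 with at least 10 counts in every library. The cause of these changes was not tested.

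Libraries share replicate numbers between groups, but same-numbered libraries did not deviate together: the correlation of their deviations ran from -0.10 to 0.14 in BALB/c and from -0.04 to 0.07 in C57BL/6J. For control and Txnip libraries with different numbers it ran from -0.19 to 0.19 in BALB/c and from -0.47 to 0.47 in C57BL/6J. A match of libraries other than by number was not tested. With the replicate block, the BALB/c median of the members was 0.35 beside 0.31, C1ql2 there was at -0.97, Pax6 in C57BL/6J was at 0.22, and 0 members were called in C57BL/6J.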

Other observations

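Of 20 further retinal transcription factor genes, 15 were tested between the control groups. Crx, a factor of cones and rods, and Six6 were higher in C57BL/6J, with log2 fold changes of 0.45 ± 0.12 and 0.50 ± 0.16 (SE, edgeR adjusted p = 0.015 and 0.034). Tfap2d, an AP-2 gene like Tfap2a and Tfap2b, was lower (edgeR adjusted p = 0.0059), with 0 counts in each C57BL/6J control and 2 to 19 in BALB/c, so that no fold is given. Without C57BL/6J control 1 and Txnip 2, an alternative chosen after the data were seen, 2 were higher and 2 lower, with Isl1 added. None of the 13 tested in BALB/c or of the 12 tested in C57BL/6J passed with Txnip in edgeR.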
